A study of Mus musculus with 8 samples.

Results

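Tears carry a set of proteins that kill or starve microbes, and the LG makes much of this set. Lysozyme cuts the peptidoglycan of bacterial walls, lactoferrin binds iron, lactoperoxidase oxidizes thiocyanate with hydrogen peroxide to a microbicidal product, and lipocalin 2 binds the siderophores with which bacteria take up iron. Small proteins with a whey acidic protein (WAP) domain inhibit proteases and in part act on bacteria directly, and lipopolysaccharide binding protein (LBP) carries the endotoxin of Gram-negative bacteria to CD14. The genes for 9 such proteins were examined, *Lpo*, *Ltf*, *Lyz1*, *Lyz2*, *Lcn2*, *Slpi*, *Wfdc2*, *Wfdc18* and *Lbp*. They were chosen by symbol, all 9 were found among the 24552 genes of the count table, and all 9 passed the filter on low counts, as 11211 genes did.

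The LGs came from female mice aged 10/11 months, and the strain in the study was C57BL/6 J. The AL group holds 4 libraries from mice fed ad libitum, and the CR group 4 libraries from mice on a 40% calorie restriction, both diets lasting 4 months. The study counts these samples in mice. No allele or agent other than the diet separated the groups, and CR mice got their food once a day, shortly before the dark phase. The study kept mice in 2 cohorts on different chows, and in 1 of them the chow of the CR group was enriched in vitamins and micronutrients. The labels do not say to which cohort a library belongs, and the part of the chow in the results was not tested. RNA was sequenced from the 3' ends of transcripts, so a count stands for a transcript end and does not grow with transcript length. Levels are given in CPM, that is, counts brought to an equal library size, with the mean ± SD of 4 libraries per diet. Totals were 12051881 to 22156511 counts per library, and a floor of 3 counts corresponded to between 0.152 and 0.231 CPM, which covers counting error only.

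Markers of other glands and of leukocytes differed between the libraries. The summed level of 7 transcripts abundant in the parotid gland was 13790 to 43260 CPM in AL and 56330 to 304000 CPM in CR, and AL replicate 4 and CR replicate 4 were the lowest of their groups. In bulk RNA, fewer cells of a type and less RNA per cell cannot be told apart. The 12 macrophage markers summed to 106.4 to 301.4 CPM in AL and 63.5 to 121.3 CPM in CR, 11 of the 12 with a log2 fold change under 0 and none called. Of all genes tested, 51.1% had a log2 fold change above 0, and 1.98% were called in either direction. The neutrophil list of 12 genes summed to only 2.23 to 4.85 CPM in AL and 1.24 to 2.05 CPM in CR, with *Camp*, *Elane*, *Cxcr2* and *Ly6g* at 0 in all 8 libraries. The 7 T and B cell markers summed to 3.40 to 14.8 CPM in AL and 0.887 to 1.48 CPM in CR. Lacrimal acinar markers were present in all libraries, at 18470 to 30960 CPM in AL and 18460 to 42880 CPM in CR, with *Pip*, the gene of a secreted tear protein, at means of 22840 and 27470 CPM, making up most of this sum. Of the 6 acinar genes, 4 had a log2 fold change above 0 and 2 below it, with a median of 0.24 and 1 called. Below 0 were *Pax6*, at 67.7 ± 16.8 CPM in AL and 42.2 ± 22.8 CPM in CR (log2 fold change -0.68, edgeR adjusted p = 0.3), and *Chrm3* (-0.06). The sums were 96.3 to 4962 CPM in AL and 5042 to 58890 CPM in CR for 10 submandibular and sublingual transcripts, and 158.4 to 206 CPM in AL and 213.8 to 277.4 CPM in CR for 7 duct and basal cell markers. Of all these markers 5 were called, all higher in CR, *Prb1*, *Prh1*, *Prp2*, *Dcpp3* and the acinar transcription factor gene *Sox10* (15.3 ± 2.53 CPM in AL and 67.1 ± 28.6 CPM in CR).

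**Figure D1:**
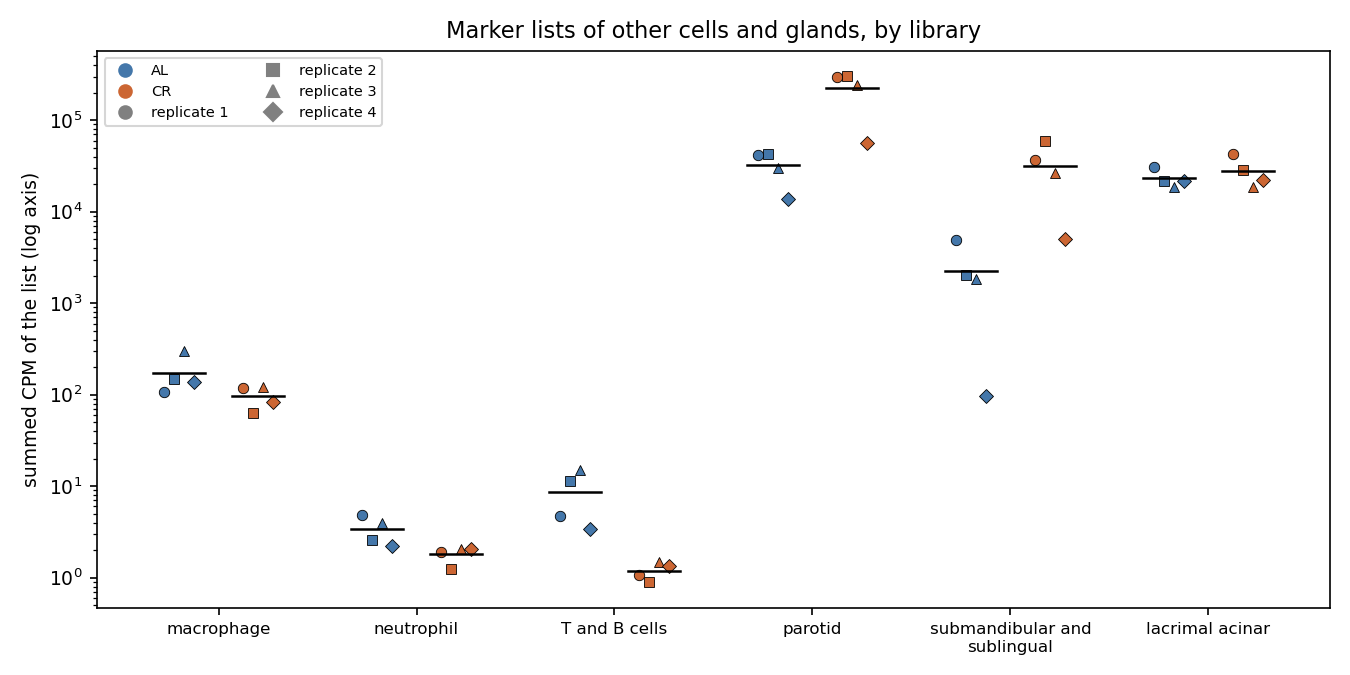
Summed level of 6 marker lists in each library, in CPM on a log axis, with AL in blue, CR in orange, a symbol per replicate number and a bar at the mean of 4 libraries. The parotid list lay at 13790 to 43260 CPM in AL and at 56330 to 304000 CPM in CR, the neutrophil list stayed under 5 CPM in all 8 libraries, and the macrophage list overlapped between the diets.

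The stretches before the start sites of both lysozyme genes are shown because the genes are neighbours and near copies of each other. *Lyz1* and *Lyz2* lie side by side on the minus strand of chromosome 10 of GRCm38, the build that mm10 names, 5475 bases apart. *Lyz2* extends from 117277331 to 117282321 and *Lyz1* from 117287797 to 117292868. The 250 bases before the RefSeq start of each gene (GRCm38.p6, minus strand, chr10:117282273-117282522 for *Lyz2* and chr10:117292869-117293118 for *Lyz1*) are given 5′ to 3′, with capitals at the bases at which the aligned sequences differ.
Lyz2: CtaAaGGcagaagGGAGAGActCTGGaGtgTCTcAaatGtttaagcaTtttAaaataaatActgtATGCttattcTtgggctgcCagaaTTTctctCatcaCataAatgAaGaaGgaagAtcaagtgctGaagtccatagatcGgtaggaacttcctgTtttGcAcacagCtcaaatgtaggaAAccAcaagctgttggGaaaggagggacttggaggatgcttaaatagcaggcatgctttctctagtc
Lyz1: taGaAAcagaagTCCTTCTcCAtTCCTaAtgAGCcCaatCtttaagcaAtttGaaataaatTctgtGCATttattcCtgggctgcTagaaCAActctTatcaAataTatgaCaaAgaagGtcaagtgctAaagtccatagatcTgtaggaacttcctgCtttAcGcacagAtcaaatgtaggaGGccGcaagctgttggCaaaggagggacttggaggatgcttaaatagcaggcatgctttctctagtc
The aligned sequences are 79.4% identical, and the 50 bases next to the start site are the same in both genes. The gene spans above are those of GENCODE, and the RefSeq start of *Lyz2* lies inside its span. Part of the *Lyz2* window is therefore inside the gene by that annotation, while the *Lyz1* window is outside it. Their transcripts are 92.0% identical, and 5.70% of the 75-base windows in the last 600 bases of each are shared with the other, so that a small part of the reads cannot be assigned to *Lyz1* or *Lyz2* with certainty. The last 600 bases of the other 7 genes share no such window with another annotated gene.

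Among the 9 genes, 1 passed the thresholds of the study, which asked for a fold change of 1.5 or more beside an adjusted p under 0.05. This gene was *Lyz2*, and it fell under CR. The calls here come from edgeR, while the methods of the study name DESeq2 for fold changes and p-values. With DESeq2 and the same thresholds, *Lyz2* and *Ltf* were called lower and *Lbp* higher, beside 2.25% of the 13557 genes with an adjusted p called lower and 2.94% called higher. With edgeR, over all 11211 genes tested, 0.785% were called lower and 1.2% higher, 1.98% in either direction. *Ltf* and *Lyz1* also had lower means in CR, and *Lbp* and *Wfdc2* higher ones, but none of these passed the adjusted threshold. For *Lpo*, *Wfdc18*, *Lcn2* and *Slpi* the 95% confidence interval of the difference included 0. Log2 fold changes were above 0 in 4 of the 9 genes, as in 51.1% of all genes tested. They extended from -1.48 to 2.33 with a median of -0.04, and the median over all genes tested was 0.01. At an unadjusted p under 0.05 there were 5 of the 9 genes, against 16.7% of all genes tested. The diets did not overlap in 1 of the 9 genes, as in 9.79% of all genes tested. All CR libraries lay above all AL libraries in 0 of the 9 genes, and in 4.58% of all genes tested.

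**Figure D2:**
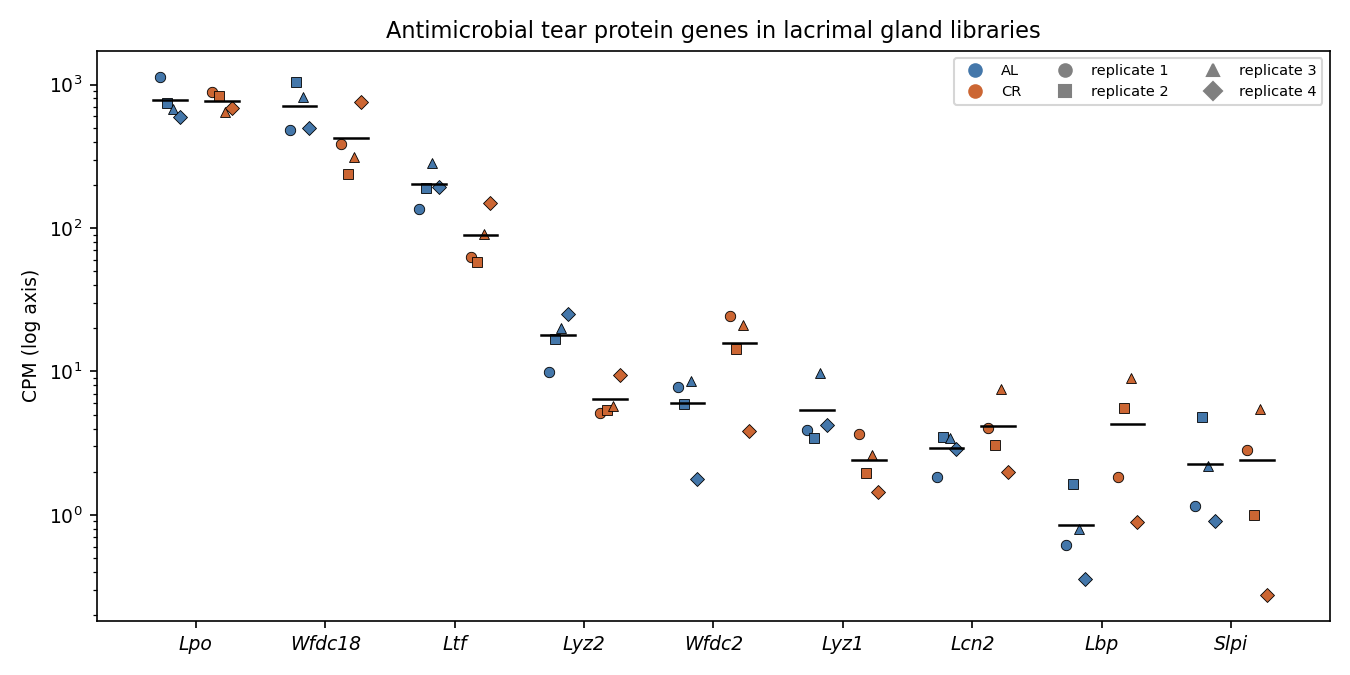
Level of each of the 9 genes in each library, in CPM on a log axis, with AL in blue, CR in orange, a symbol per replicate number and a bar at the mean of 4 libraries. The 4 CR libraries lie below the 4 AL libraries for Lyz2 and in none of the other genes are the diets separated, with CR replicate 4 inside the AL range for Ltf and Wfdc18.

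*Lyz2* (Gene ID 17105) encodes the lysozyme of macrophages and other myeloid cells. Its level was 9.93, 16.9, 20.2 and 25.0 CPM in AL replicates 1 to 4 and 5.16, 5.38, 5.75 and 9.49 CPM in CR replicates 1 to 4. All CR libraries lay below all AL libraries, as in 5.2% of all genes tested, with CR replicate 4 just under AL replicate 1. The mean fell under CR, from 18.0 ± 6.33 to 6.45 ± 2.04 CPM (n = 4 each). In log2 units this was a difference of -1.48 with a standard error of 0.30 and a 95% confidence interval of -2.13 to -0.83 (quasi-likelihood test of edgeR, Benjamini-Hochberg adjusted p = 0.0312). The call was lost without AL replicate 2, 3 or 4 and without CR replicate 1, 2 or 3, with edgeR adjusted p-values between 0.0619 and 0.116, while the log2 fold change over the 8 fits that each left out 1 library was between -1.73 and -1.28. The call was also lost, with a log2 fold change of -0.19 (edgeR adjusted p = 0.92), when the mean log2 CPM of the parotid transcripts was added to the fit. That mean did not overlap between the diets, so this fit cannot tell it apart from the diet. The summed macrophage markers, at 106.4 to 301.4 CPM in AL and 63.5 to 121.3 CPM in CR, were also lower on average. Counts of *Lyz2* per count of the macrophage list were 0.0933, 0.113, 0.0671 and 0.181 in AL and 0.0435, 0.0847, 0.0474 and 0.115 in CR, overlapping between the diets (exact permutation test of the log2 ratio, two-sided p = 0.2, adjusted over 4 ratios 0.305). These ratios were chosen after the levels had been seen. The smallest p this test can give is 0.0286, so it cannot show that the ratios are alike.

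*Lyz1* (Gene ID 17110), which encodes the lysozyme of Paneth cells of the intestine, had the same direction at a lower number of counts. AL replicates 1 to 4 had 3.93, 3.43, 9.76 and 4.26 CPM, and CR replicates 1 to 4 had 3.67, 1.95, 2.60 and 1.44 CPM. AL replicate 3 stood far above the rest, and CR replicate 1 lay within the AL range. The means were 5.34 ± 2.96 CPM in AL and 2.42 ± 0.963 CPM in CR (log2 fold change -1.15, standard error 0.41, edgeR adjusted p = 0.178). Without AL replicate 3 the log2 fold change was -0.69. The ratio of *Lyz2* to *Lyz1* counts, into which no scaling between libraries enters, was 2.53, 4.93, 2.07 and 5.87 in AL and 1.40, 2.76, 2.21 and 6.58 in CR, and the diets overlapped (exact permutation test, two-sided p = 0.6).
Of 8 other lysozyme-like genes searched for, *Spaca3* and *Lyzl4* had a count in some library, and 1, *Spaca3*, was tested. *Spaca3*, known from sperm, had 1.23 ± 0.475 CPM in AL against 0.766 ± 0.349 CPM in CR (edgeR adjusted p = 0.573), and *Lyzl4* had 0.0871 CPM in AL against 0.186 CPM in CR on average. The other 6 were at 0 counts in all 8 libraries.

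*Ltf* (Gene ID 17002, chromosome 9 from 111019271 to 111042767 on the plus strand), the gene of lactoferrin, had a mean in CR under that of AL. Its level was 134.8, 191.4, 284.6 and 193.9 CPM in AL replicates 1 to 4 and 62.9, 58.1, 90.4 and 148.7 CPM in CR replicates 1 to 4. Only CR replicate 4 reached into the AL range, above AL replicate 1. With means of 201.2 ± 61.9 CPM in AL and 90.0 ± 41.6 CPM in CR, the log2 fold change was -1.16 (standard error 0.31, 95% confidence interval -1.84 to -0.48, edgeR adjusted p = 0.0811). Without CR replicate 4 it was -1.51 and was called (edgeR adjusted p = 0.00539). It was also called with all 8 libraries by DESeq2 (adjusted p = 0.00645), by limma voom (0.019) and by edgeR with no filter on low counts (0.0331). *Ltf* was not called with TMM factors (edgeR adjusted p = 0.0822) or upper-quartile factors (0.074). The same held without the 50 most counted genes (0.0773) and with at least 10 counts in every library (0.0718). No other fit that left out a library called it, with edgeR adjusted p-values up to 0.229.
The 250 bases before the RefSeq start of *Ltf* (GRCm38.p6, plus strand, chr9:111019042-111019291) hold 1 match each to a C/EBP motif and a PU.1 motif, the binding motifs of transcription factors of myeloid and secretory cells, shown in capitals.
Ltf: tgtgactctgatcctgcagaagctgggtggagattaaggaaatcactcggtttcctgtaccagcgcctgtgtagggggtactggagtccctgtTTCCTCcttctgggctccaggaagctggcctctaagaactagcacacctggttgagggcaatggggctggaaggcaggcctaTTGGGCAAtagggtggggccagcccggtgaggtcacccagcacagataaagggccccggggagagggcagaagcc
The motifs searched on both strands were TTGCNNAA for C/EBP, found in 9.55% of 27025 promoter windows of the same length, GAGGAA for PU.1 (23.1%), the NF-kB consensus (7.01%), TGANTCA for AP-1 (6.87%), TTCNNNGAA for STAT (7.18%), ACANNNTGT for the glucocorticoid receptor (5.91%) and CACGTG for E-box factors (6.05%). The C/EBP match of *Ltf* begins 75 bases and the PU.1 match 157 bases before the start, and they do not overlap. In the lysozyme windows the glucocorticoid receptor motif was found in *Lyz2*, 63 bases before the start, and the C/EBP motif in *Lyz1*, 209 bases before it. The window of *Lcn2* holds the C/EBP, glucocorticoid receptor and PU.1 motifs, 216, 152 and 20 bases before the start. That of *Slpi* holds the C/EBP and E-box motifs, 241 and 146 bases before it, and those of *Lpo*, *Wfdc2* and *Wfdc18* hold none of the motifs. These are matches of letters only. The starts are those of RefSeq, while the gene spans given in the text are those of GENCODE. By these spans the windows of *Lcn2*, *Slpi*, *Wfdc2* and *Lpo* lie inside the gene, and those of *Lyz2* and *Ltf* lie partly inside it.

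*Lpo* (Gene ID 76113, chromosome 11 from 87806428 to 87828289 on the minus strand) encodes lactoperoxidase. Its level was 1135, 742.7, 670.7 and 595.9 CPM in AL replicates 1 to 4 and 890.3, 835.9, 648.1 and 681.8 CPM in CR replicates 1 to 4. The CR libraries all lay inside the AL range. Means of 786 ± 240.4 CPM in AL and 764 ± 117.3 CPM in CR gave a log2 fold change of -0.04 (standard error 0.26, edgeR adjusted p = 0.966), with a 95% confidence interval of -0.61 to 0.52. With the mean log2 CPM of the 7 parotid transcripts added to the fit it was -0.89, but that mean and the diet cannot be told apart. Within a library, counts of *Ltf* per count of *Lpo* were 0.119, 0.258, 0.424 and 0.325 in AL and 0.0706, 0.0696, 0.139 and 0.218 in CR (exact permutation test of the log2 ratio, two-sided p = 0.0857, adjusted 0.305). The smallest p that 4 libraries against 4 allow is 0.0286.
*Lpo* needs hydrogen peroxide and a supply of thiocyanate. Of 14 genes of a peroxidase list, 11 had a count and 4 were tested (*Ano1*, *Cybb*, *Cyba* and *Ncf1*), with none called and a median log2 fold change of -0.82. The most counted were *Ano1*, a chloride channel gene, at 28.4 ± 8.80 CPM in AL and 51.4 ± 30.3 CPM in CR (edgeR adjusted p = 0.239), and the NADPH oxidase genes *Cybb*, at 18.4 ± 8.72 and 10.5 ± 2.50 CPM (0.19), and *Cyba*, at 12.0 ± 6.42 and 6.81 ± 3.99 CPM (0.391). The oxidase genes *Duox1*, at 0.271 CPM in AL and 0.1155 CPM in CR on average, and *Duox2*, at 0 counts in all libraries, were too low for the test. So was the channel gene *Cftr*, at 0.137 ± 0.174 CPM in AL and 1.82 ± 1.23 CPM in CR, with CR replicate 4 at 0 counts. The study names *Cftr* among the raised genes of a secretion pathway.

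*Lcn2* (Gene ID 16819, chromosome 2 from 32384633 to 32388252 on the minus strand), the gene of lipocalin 2, was weakly counted. Its level was 1.85, 3.49, 3.42 and 2.89 CPM in AL replicates 1 to 4 and 4.03, 3.08, 7.48 and 1.997 CPM in CR replicates 1 to 4. CR replicate 3 was the highest and the groups overlapped (log2 fold change 0.50, standard error 0.41, edgeR adjusted p = 0.601, 95% confidence interval -0.38 to 1.39). The log2 fold change was 0.058 without CR replicate 3. Of 8 partners and receptors, 5 were tested and none was called, among them *Slc22a17*, which encodes a lipocalin 2 receptor, at 18.7 ± 5.79 CPM in AL and 23.0 ± 9.27 CPM in CR (edgeR adjusted p = 0.698). The gene of progranulin, *Grn*, a substrate that SLPI shields from elastase, had 144.9 ± 40.7 and 155.1 ± 38.6 CPM (edgeR adjusted p = 0.898), and *Anxa2*, which encodes a membrane protein that binds SLPI, 20.4 ± 11.3 and 11.2 ± 2.93 CPM (0.2).

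Of the WAP domain genes among the 9, none was called. *Wfdc18* (Gene ID 14038, chromosome 11 from 83709015 to 83711348 on the plus strand) had 480.6, 1038, 819.5 and 498.3 CPM in AL replicates 1 to 4 and 383.8, 237.5, 312 and 761 CPM in CR replicates 1 to 4. In CR replicates 1 to 3 it was below every AL library, while CR replicate 4 was above 2 of them. The log2 fold change was -0.74 (standard error 0.38, edgeR adjusted p = 0.355), and without CR replicate 4 it was -1.19 and was called (edgeR adjusted p = 0.0412). Without AL replicate 2 it was -0.50 (edgeR adjusted p = 0.649), and these are the ends of the range over the 8 libraries left out. Counts of *Wfdc18* per count of *Lpo* were 0.423, 1.40, 1.22 and 0.836 in AL against 0.431, 0.284, 0.481 and 1.12 in CR (by an exact permutation test, two-sided p = 0.229, adjusted 0.305).
*Wfdc2* (Gene ID 67701, chromosome 2 from 164562413 to 164568510 on the plus strand), known as HE4, had 7.85, 5.94, 8.59 and 1.77 CPM in AL replicates 1 to 4 and 24.3, 14.4, 21.03 and 3.83 CPM in CR replicates 1 to 4. CR replicates 1 to 3 were above every AL library, and the replicates numbered 4 were the lowest of both groups, as they were for the parotid list. Means of 6.04 ± 3.05 CPM in AL and 15.9 ± 9.04 CPM in CR gave a log2 fold change of 1.40 (standard error 0.53, edgeR adjusted p = 0.196). Without CR replicate 4 it was 1.73 and was called (edgeR adjusted p = 0.0241). With the mean log2 CPM of the parotid transcripts as a term in the fit, the value for *Wfdc2* changed sign, to -0.88 (standard error 0.96). This term did not overlap between the diets and cannot be told apart from them.
*Slpi* (Gene ID 20568, chromosome 2 from 164354070 to 164389095 on the minus strand), which encodes an inhibitor of neutrophil elastase, had 1.15, 4.78, 2.18 and 0.912 CPM in AL replicates 1 to 4 and 2.83, 1.005, 5.51 and 0.277 CPM in CR replicates 1 to 4. The CR libraries extended beyond the AL range on both sides, and CR replicate 4 rested on 5 counts. Its log2 fold change of 0.08 had a standard error of 0.75 (edgeR adjusted p = 0.978), and the 95% confidence interval extended from -1.55 to 1.71. An annotated microRNA gene on the same strand, *Mir7678*, overlaps its exons.

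Beyond these genes, 17 other genes of the WAP family were in the table, 8 of them with a count, and 2 were tested. *Wfdc12*, a gene of the same family, was called higher in CR. It had 182.3, 91.2, 88.9 and 56.6 CPM in AL replicates 1 to 4 and 1657, 1830, 909 and 218.7 CPM in CR replicates 1 to 4, without overlap. The difference of 3.46 in log2 units had a standard error of 0.59 (edgeR adjusted p = 0.0135). In both diets its lowest library was replicate 4, as for the parotid list. *Wfdc12* lost its call with the parotid term in the fit, at 0.85 (standard error 0.84, edgeR adjusted p = 0.746), and without AL replicate 2 or 3, at edgeR adjusted p-values of 0.0678 and 0.0536 for these libraries. The parotid term and the diet cannot be told apart. *Wfdc17* had 5.34 ± 0.761 CPM in AL against 2.87 ± 0.768 CPM in CR (log2 fold change -0.89, edgeR adjusted p = 0.129). Its CR libraries all lay below every AL library, as in 5.2% of all genes tested. *Wfdc15b* was at 0.0182 CPM on average in AL and 0.803 CPM in CR, too low for the test.

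*Lbp* (Gene ID 16803, chromosome 2 from 158306493 to 158332852 on the plus strand) had the largest fitted log2 fold change of the 9 genes and the widest spread among CR libraries relative to its mean after *Slpi*. AL replicates 1 to 4 had 0.616, 1.65, 0.801 and 0.355 CPM, which stand for 8, 27, 11 and 7 counts. CR replicates 1 to 4 had 1.84, 5.56, 9.03 and 0.888 CPM, which stand for 26, 94, 146 and 16 counts. CR replicates 1 to 3 lay above every AL library and CR replicate 4 below AL replicate 2. The log2 fold change was 2.33 (standard error 0.70, 95% confidence interval 0.81 to 3.85, edgeR adjusted p = 0.111). Leaving out 1 library gave values between 1.69, without CR replicate 3 (edgeR adjusted p = 0.312), and 2.88, without AL replicate 2 (0.125). *Lbp* was called without CR replicate 4 (log2 fold change 2.67, edgeR adjusted p = 0.0187) and by DESeq2 with all libraries (2.34, adjusted p = 0.0134), and not by the test on which the counts of called genes rest. The study also reports higher *Lbp* under CR by qRT-PCR of further LG samples, and more LBP protein by western blot.
Of 11 genes of endotoxin recognition and its signalling, 10 were tested and none was called, with a median log2 fold change of -0.07. The most counted were *Irak1*, a kinase of this pathway, at 88.0 ± 9.38 CPM in AL and 88.0 ± 10.3 CPM in CR (edgeR adjusted p = 0.998), and the adaptor gene *Tirap*, at 10.3 ± 0.668 and 11.4 ± 1.87 CPM (0.779). *Tlr4*, the endotoxin receptor gene, had 8.21 ± 0.945 and 7.63 ± 1.64 CPM (edgeR adjusted p = 0.878).

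**Figure D3:**
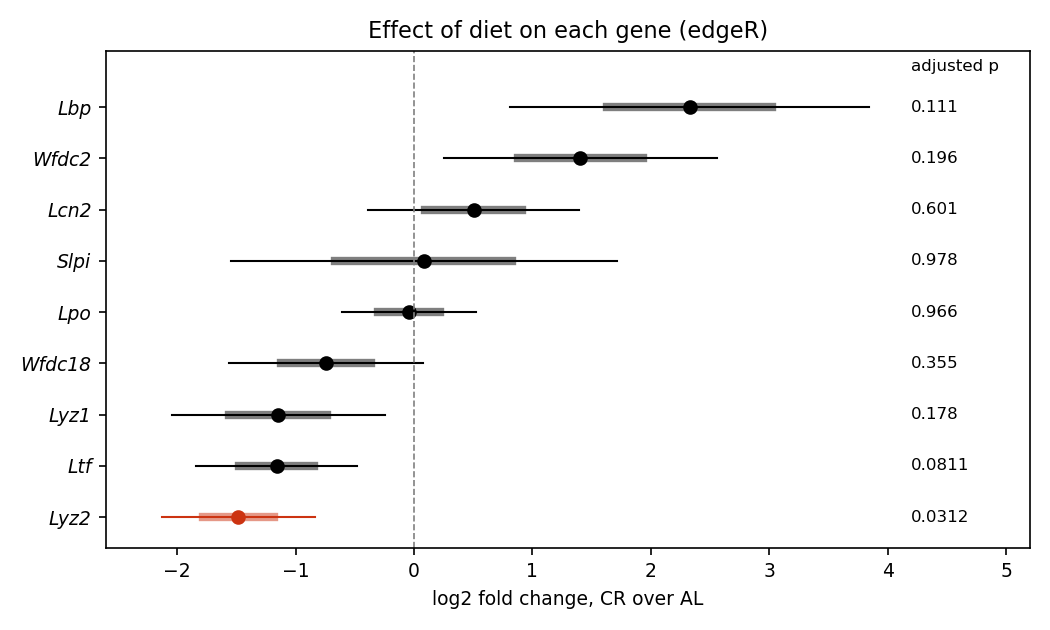
Log2 fold change of CR over AL for the 9 genes, with a thick bar for the standard error, a thin bar for the 95% confidence interval and the adjusted p from edgeR at the right. Lyz2, in red, is the gene called, at -1.48, and the intervals of Lpo, Slpi, Lcn2 and Wfdc18 include 0.

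Other defence genes and regulators were taken from lists. Of 18 further secreted defence proteins, 9 were tested, 1 was called and it was lower in CR. This was *Pigr*, the receptor that carries IgA through the epithelium, with 389.3, 364, 369.1 and 458.1 CPM in AL replicates 1 to 4 and 190.7, 205.2, 160.8 and 262.3 CPM in CR replicates 1 to 4. No CR library reached the AL range, and all lay below it, as in 5.2% of all genes tested (log2 fold change -0.95, standard error 0.21, edgeR adjusted p = 0.038). *Dmbt1*, which encodes a bacteria-binding glycoprotein, had 280.7 ± 91.9 CPM in AL against 162.1 ± 86.7 CPM in CR (edgeR adjusted p = 0.282), and *Cst3*, the gene of the protease inhibitor cystatin C, 30.7 ± 8.51 and 56.0 ± 12.2 CPM, higher in each CR library (log2 fold change 0.87, edgeR adjusted p = 0.0882).
Of 19 cytokine and acute phase genes, 11 were tested and 1 was called, lower in CR. *Hp*, the gene of the haemoglobin-binding protein haptoglobin, had 624.1, 609, 586.2 and 534.9 CPM in AL replicates 1 to 4 and 301.2, 194.1, 172.9 and 340.5 CPM in CR replicates 1 to 4. The groups lay well apart (log2 fold change -1.22, standard error 0.25, edgeR adjusted p = 0.0328), with every CR library below every AL library, as in 5.2% of all genes tested. *Stat3*, which encodes a transcription factor of the acute phase response, had 69.9 ± 3.65 and 75.8 ± 6.49 CPM (edgeR adjusted p = 0.775), and *Il1r1*, the interleukin 1 receptor gene, 13.4 ± 4.39 and 7.62 ± 4.18 CPM (0.314). *Pigr* lost its call in 7 of the 8 fits that left out a library, all but that without CR replicate 4 (edgeR adjusted p-values up to 0.121), and *Hp* in 6, all but those without AL replicate 4 or CR replicate 4 (up to 0.116).

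After the mean of each diet had been subtracted, some of the 9 genes varied together among the 8 libraries. *Lcn2* and *Slpi* had a Pearson r of 0.887 in log2 CPM, *Slpi* and *Lbp* one of 0.777 and *Slpi* and *Wfdc2* one of 0.76. *Ltf* and *Lyz2* had an r of 0.789 and *Ltf* and *Wfdc18* one of 0.755, while *Lpo* and *Lyz2* (-0.874) and *Wfdc2* and *Lyz2* (-0.76) varied in opposite ways. These values are descriptions of 8 libraries that share their scaling, and they come with no test.
Among all genes of at least 5 CPM, those that followed each gene most closely by this measure were *Clu*, which encodes the secreted chaperone clusterin, for *Ltf* (r = 0.992), *Slc35b2* for *Lpo* (0.992), *Slc6a6* for *Lyz2* (0.963) and *Cep63* for *Lyz1* (0.972). For *Lcn2* it was *Nop53* (0.98), for *Slpi* *Cdkn2aipnl* (0.981), for *Wfdc2* *Map3k4* (0.994), for *Wfdc18* *Scd3* (0.935) and for *Lbp* *Tsc22d3* (0.976), the glucocorticoid-induced leucine zipper gene. These too are descriptions, each the highest value among 6380 or 6381 genes compared over 8 libraries.

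The make-up of the group as a whole also varied between libraries. Of the counts on the 9 genes, AL replicates 1 to 4 had 63.9, 37.0, 36.9 and 45.0% on *Lpo*, and CR replicates 1 to 4 had 64.6, 71.9, 58.8 and 42.4%. *Wfdc18* took 27.1, 51.7, 45.0 and 37.7% in AL and 27.8, 20.4, 28.3 and 47.3% in CR. In both genes CR replicate 4 was nearer to AL replicates 2 to 4 than to the other CR libraries, and AL replicate 1 nearer to the other CR libraries. Together the 9 genes took 0.118 to 0.207% of all counts in AL and 0.117 to 0.15% in CR.

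When a parotid score, calculated as the mean log2 CPM of the 7 parotid transcripts, was added to the fit, the differences between the diets changed. AL replicates 1 to 4 scored 8.78, 6.34, 7.34 and 3.87, and CR replicates 1 to 4 scored 12.8, 13.8, 11.4 and 10.7, without overlap, so the score and the diet cannot be told apart. In this fit the log2 fold change of *Lyz2* was -0.19 (standard error 0.46, edgeR adjusted p = 0.92) and that of *Ltf* -0.23 (standard error 0.57). *Lpo* had -0.89 (standard error 0.44, edgeR adjusted p = 0.505). *Lyz1* had -1.76, *Lbp* 1.59 and *Wfdc2* -0.88, each with a standard error of at least 0.90. *Wfdc12* had 0.85, *Pigr* -0.63 and *Hp* -1.15, and none of them was called.

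**Figure D4:**
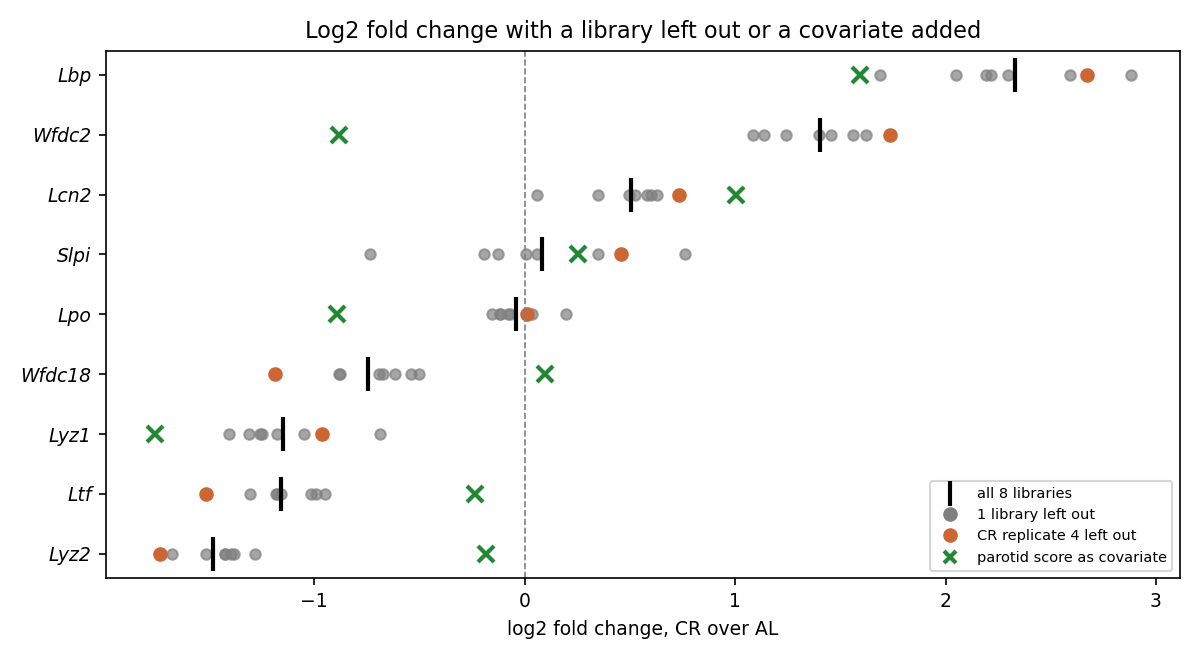
Log2 fold change of CR over AL for the 9 genes with all 8 libraries (black line), with 1 library left out (circles, orange for CR replicate 4) and with the parotid score in the model (green cross). Lyz2 stays between -1.73 and -1.28 when a library is left out and is at -0.19 with the covariate, and Wfdc2 changes from 1.40 to -0.88 with the covariate. The score does not overlap between the diets and cannot be told apart from them.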

How the data were processed

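LG RNA was sequenced from 3' ends with 75-base single reads. Per the labels and the study's methods, the reads were trimmed (cutadapt), aligned (STAR, mm10) and summed per gene (HTSeq) by the authors, and the raw counts were deposited. Versions are not given in the sources used here. The authors' normalized log2 values were not used. Of 24557 rows, 5 repeated symbols were dropped.

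Counts were analysed with edgeR 4.0.16 in R 4.3.3, by quasi-likelihood F tests after filterByExpr and RLE scaling, and Benjamini-Hochberg adjustment covered the 11211 genes tested. Standard errors are log2 fold changes divided by the root of F. The biological coefficient of variation was 34.7%. Exact permutation tests were two-sided. Positions are from GENCODE M21 (GRCm38), and promoters from a set of windows at RefSeq starts. The set used held 8 of the 9 genes, so *Lbp* was not searched for motifs. Replicate numbers do not mark a shared animal, and same-numbered residuals correlated at 0.131, 0.067, 0.22 and 0.429, so they were not treated as pairs. On simulated counts for 11211 genes, 82 of 97 changes of 2 on the log2 scale and 22 of 99 changes of 1 were called, with 5 of the unchanged genes.

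Genes and lists were chosen with earlier results of these data known. Named were the 9 genes, the called and the 3 most counted genes of each list, the marker lists by their sums, the called markers, and for each of the 9 genes the 3 closest by correlation, of which the text gives the first. *Camp*, *Elane*, *Cxcr2* and *Ly6g* are named as markers at 0, and *Pip* as the most counted acinar marker, after their values were seen. Also named after their values were seen are *Pax6* and *Chrm3*, as the acinar markers under 0, and *Ncf1*, *Duox1*, *Duox2* and *Cftr* of the peroxidase list. No member needed the permutation test planned for genes failing the filter. Alternatives were TMM and upper-quartile factors, leaving out the 50 most counted genes, no filter, at least 10 counts in every library, DESeq2 1.42.0, limma 3.58.1 voom with quality weights, a replicate block, the parotid score and leaving out each library.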

Additional observations from a re-analysis of the deposited data

Results flagged for a closer look

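Of 18 sets of 4 libraries, a gene in a diet each, 2 held a library far from the other 3 by Dixon's criterion for the gap over the range, which chance alone meets in about 1 in 20 sets. *Lyz1* was at 9.755 CPM in AL replicate 3, and this gap took 0.869 of the range of the AL libraries. AL replicate 3 also had the highest macrophage sum, 301.4 CPM. *Lyz2* was at 9.486 CPM in CR replicate 4, and this gap took 0.863 of the range of the CR libraries. CR replicate 4 had the lowest parotid sum among the CR libraries, 56330 CPM, and a macrophage sum of 82.7 CPM. The part of these markers was not tested.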

How the results depend on the processing

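Over all genes, 134 were called higher and 88 lower. The counts were 271 and 165 with no filter on low counts, 399 and 305 with DESeq2, 237 and 160 with limma voom, 388 and 312 with the replicate block, and 4 and 0 when the parotid score was a covariate. Leaving out 1 library gave 35 to 453 genes higher and 25 to 247 lower, with the highest numbers without CR replicate 4 and the lowest without AL replicate 2 or CR replicate 2. Of the 9 genes, 0 were called higher and 1 lower. With no filter and with limma voom 2 were called lower, *Lyz2* and *Ltf*, and with DESeq2 these 2 and 1 higher, *Lbp*. With the replicate block 2 were called higher, *Wfdc2* (edgeR adjusted p = 0.00168) and *Lbp* (0.0183), and 2 lower, *Lyz2* (0.00136) and *Ltf* (0.0073). This pairing rests on the numbers alone, and AL replicate 3 (r = 0.289 with CR replicate 1), CR replicate 1 and CR replicate 2 did not correlate best with their own number, while the other libraries did. With the parotid score 0 were called lower. Leaving out 1 library gave 0 to 2 genes higher and 0 to 3 lower, the most without CR replicate 4, when *Wfdc2* and *Lbp* were called higher and *Lyz2*, *Ltf* and *Wfdc18* lower.

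Signs changed for values near 0 or with the parotid score. *Slpi* was at -0.38 with limma voom and -0.20 with the replicate block, and between -0.73 and 0.76 when a library was left out. *Lpo* extended from -0.16 to 0.20, *Irak1* from -0.066 to 0.068 and *Grn* from -0.029 to 0.29 in those fits. *Irak1* was at 0.0018 with no filter, 0.0016 with DESeq2, 0.038 with limma voom and 0.19 with the parotid score. With that score *Wfdc2* was at -0.88, *Wfdc18* at 0.10, *Dmbt1* at 0.028, *Grn* at -0.31 and *Slc22a17* at -0.83. The cause was not tested. TMM, upper-quartile factors, leaving out the 50 most counted genes and requiring 10 counts in every library changed no call among the 9 genes. *Lpo*, itself among the 50 most counted genes, was not tested without them, and *Lbp* and *Slpi* were not tested with 10 counts in every library. These last 2 had as few as 7 and 5 counts in a library.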
